A study of Mus musculus with 4 samples.

Results

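The genes described here are 10 members of the IL-1 system, namely the agonists *Il1a* and *Il1b*, the receptor antagonist *Il1rn*, the decoy receptor *Il1r2*, the co-receptor *Il1rap*, the related cytokines *Il18* and *Il33*, the IL-18 co-receptor *Il18rap*, and the inflammasome genes *Nlrp3* and *Casp1*. They form a set that puts agonists beside their antagonist and decoy, and were found by gene symbol among the 25655 genes of the files. All 10 were in the files, and 9 of them had a mean TPM (a level per length of transcript, scaled to the same sum in every library) of the 4 libraries over 10, as did 6523 genes in all. The exception was *Il33*. RNA-Seq was done on 4 libraries of cardiac neutrophils gated as CD45.2+CD11b+Ly6G+, and each library held the sorted cells of 8 pooled hearts taken on day 3 after myocardial ischemia and reperfusion (MI/R). The groups were SiglecF lo and SiglecF hi neutrophils of wild-type (WT) mice and SiglecF lo and SiglecF hi neutrophils of *Cd300a-/-* mice. CD300a is an inhibitory receptor of myeloid cells, and the labels do not state the strain. The labels name the subsets SiglecF- and SiglecF+. With 1 library per group, no difference between conditions has a replicate check within these libraries and no P value is given. The paper separately measured *Il1b* and the cytokine gene *Il6* by quantitative PCR in these subsets, in several mice per genotype. It reports both as higher in SiglecF hi than in SiglecF lo neutrophils and as comparable between genotypes. Total counts on genes were 9631901 in WT SiglecF lo, 10988619 in the *Cd300a-/-* SiglecF lo library, 19278243 in the WT SiglecF hi library and 17632989 in *Cd300a-/-* SiglecF hi neutrophils. Intervals are 95% counting intervals, and they cover counting error only and leave out variation between pools, sorts and mice. They can also be too narrow for counting error, since the reads carry no molecular identifiers and more than 1 read can come from the same molecule.

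IL-1α and IL-1β act on the same signalling receptor, IL-1R1, which pairs with the accessory protein encoded by *Il1rap* and recruits MyD88. The pathway is held back at the receptor by IL-1Ra, the product of *Il1rn*, which occupies IL-1R1 without signalling, and by IL-1R2, which binds the ligand but lacks the intracellular signalling domain. IL-1β and IL-18 are made as precursors that caspase-1 cuts once a sensor such as NLRP3 has assembled an inflammasome, whereas IL-1α and IL-33 act without that step when they leave damaged cells, and neutrophils are among the cells that carry IL-1β into the injured heart.

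The targeted gene was checked first. *Cd300a* had 3024 counts (127 TPM) in WT SiglecF lo and 6640 counts (163 TPM) in WT SiglecF hi neutrophils, against 28 counts (1.06 TPM) and 27 counts (0.74 TPM) in the *Cd300a-/-* libraries. *Siglecf* TPM was 11.3 (WT) and 15.3 (*Cd300a-/-*) in the SiglecF lo libraries, against 354 (WT) and 405 (*Cd300a-/-*) in the SiglecF hi libraries, so both labels matched the genes that define them. *Ly6g*, on which the cells were sorted, was at 330.4 TPM in WT SiglecF lo, 889 TPM in the *Cd300a-/-* SiglecF lo library, 11.1 TPM in the WT SiglecF hi library and 41.9 TPM in *Cd300a-/-* SiglecF hi neutrophils. The SiglecF hi libraries were thus low in this marker. Summed over 9 neutrophil markers, TPM was 155327 in WT SiglecF lo, 204872 in the *Cd300a-/-* SiglecF lo library, 27839.9 in the WT SiglecF hi library and 32915 in *Cd300a-/-* SiglecF hi neutrophils, and *S100a9* was the most abundant of them in each library.

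Transcripts used as markers of other cell types were also counted in these gated cells. The 9 macrophage markers summed to 2827 TPM in WT SiglecF lo, 2665 TPM in the *Cd300a-/-* SiglecF lo library, 6975 TPM in the WT SiglecF hi library and 6297 TPM in *Cd300a-/-* SiglecF hi neutrophils, with none at 0 in any library. *C1qa* led this list in *Cd300a-/-* SiglecF lo neutrophils and *C1qb* in the other 3 libraries. The 7 fibroblast markers, led by *Dcn*, summed to 871 TPM in WT SiglecF lo, 818 TPM in the *Cd300a-/-* SiglecF lo library, 1862 TPM in the WT SiglecF hi library and 1307 TPM in *Cd300a-/-* SiglecF hi neutrophils, again with none at 0. Both sums were therefore higher in the SiglecF hi libraries on the TPM scale. The 7 endothelial markers, led by *Pecam1*, summed to 158 TPM in WT SiglecF lo, 55.5 TPM in the *Cd300a-/-* SiglecF lo library, 88.5 TPM in the WT SiglecF hi library and 112 TPM in *Cd300a-/-* SiglecF hi neutrophils, with none at 0. The remaining lists were low. The highest sum of 6 cardiomyocyte markers was 45.7 TPM, that of 8 eosinophil, basophil and mast cell markers 15.0 TPM, that of 4 B cell markers 14.2 TPM, that of 7 T and NK cell markers 11.5 TPM and that of 4 dendritic cell markers 6.17 TPM. The eosinophil peroxidase gene *Epx*, which defines another SiglecF-bearing cell, was at 0 counts in all 4 libraries. In bulk RNA, fewer cells of a type and less RNA per cell cannot be told apart.

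Agonists were dominated by *Il1b* (ENSMUSG00000027398, chromosome 2 from 129206490 to 129213059 on the minus strand of GRCm39), which encodes the IL-1β precursor. It was at 9239 TPM (64368 counts) in WT SiglecF lo, 6637 TPM (51014 counts) in *Cd300a-/-* SiglecF lo, 9987 TPM (118841 counts) in WT SiglecF hi and 12137 TPM (129279 counts) in *Cd300a-/-* SiglecF hi neutrophils. Among all genes of a library it ranked 8, 12, 9 and 5 by TPM in that order, and it was the highest of the 10 members in each. On the TPM scale the lowest and the highest level were thus both found in *Cd300a-/-* libraries. The order across subsets rests on that scale. Relative to the median gene, *Il1b* was lower in WT SiglecF hi than in WT SiglecF lo neutrophils, at -0.41. For *Il1b*, log2((TPM + 1) ratio) between *Cd300a-/-* and WT libraries was -0.48 (interval -0.49 to -0.46) in SiglecF lo and 0.28 (interval 0.27 to 0.29) in SiglecF hi neutrophils, and neither passed the threshold of 0.5 used here for a change. In SiglecF lo neutrophils 21.0% of the 6523 genes had a ratio below that of *Il1b*, and in SiglecF hi neutrophils 84.7% did. A list of 10 genes induced by tissue dissociation and other immediate stimuli, led by *Junb*, had the same order of libraries, with summed TPM of 5507 in WT SiglecF lo, 4863 in the *Cd300a-/-* SiglecF lo library, 6850.0 in the WT SiglecF hi library and 7276 in *Cd300a-/-* SiglecF hi neutrophils and no gene at 0. This order was that of the sum on the TPM scale. Gene by gene, 7 of 10 had a ratio of *Cd300a-/-* to WT below 0 in SiglecF lo neutrophils. In SiglecF hi neutrophils, where that of *Il1b* was above 0, 5 of 10 did. The part of this list in the result was not tested.

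*Il1a* (ENSMUSG00000027399, chromosome 2 from 129141530 to 129151892 on the minus strand of GRCm39) lies beside *Il1b* and encodes IL-1α, which is active without cleavage. It was at 68.7 TPM (697 counts) in WT SiglecF lo, 89.2 TPM (998 counts) in *Cd300a-/-* SiglecF lo, 278 TPM (4817 counts) in WT SiglecF hi and 441 TPM (6845 counts) in *Cd300a-/-* SiglecF hi neutrophils. Both SiglecF hi libraries lay above both SiglecF lo libraries, and within each subset the *Cd300a-/-* library was the higher. The log2 ratio of *Cd300a-/-* to WT was 0.66 (interval 0.61 to 0.72) in SiglecF hi neutrophils, where *Il1a* rose 1.59-fold and lay above 98.9% of genes, and 0.37 (interval 0.23 to 0.51) in SiglecF lo neutrophils. On the TPM scale *Il1b* exceeded *Il1a* 134-fold in WT SiglecF lo, 74.4-fold in *Cd300a-/-* SiglecF lo, 35.9-fold in WT SiglecF hi and 27.5-fold in *Cd300a-/-* SiglecF hi neutrophils. The share of IL-1α transcripts among agonist transcripts was therefore larger in SiglecF hi neutrophils and, within each subset, in *Cd300a-/-* mice.

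Between subsets, the ratio of the median gene was itself shifted on the TPM scale, by 0.53 in WT and 0.61 in *Cd300a-/-* neutrophils, and the 10 most abundant genes took 22.8% (WT) and 26.7% (*Cd300a-/-*) of TPM in the SiglecF lo libraries against 12.3% and 11.8% in the corresponding SiglecF hi libraries. Differences between SiglecF hi and SiglecF lo neutrophils are therefore given relative to the median gene. Relative to it, *Il1a* was higher in SiglecF hi neutrophils by a log2 ratio of 1.47 in WT, or 2.78-fold, and of 1.68 in *Cd300a-/-* mice, or 3.21-fold. On the same centred scale 6 of 9 macrophage markers lay above 0 in WT and 8 of 9 in *Cd300a-/-* mice, and 7 of 7 fibroblast markers in WT but 3 of 7 in *Cd300a-/-* mice. The part of either cell type in the rise of *Il1a* was not tested. *Il1b* had a ratio relative to the median gene of -0.41 in WT, where it was 0.11 on the TPM scale and -0.43 with TMM scaling, and of 0.26 in *Cd300a-/-* neutrophils, where it was 0.87 on the TPM scale. On this centred scale 7 of 10 immediate early genes lay below 0 in each genotype, also where *Il1b* lay above 0. Of the agonists only *Il1a* thus differed between subsets past 0.5 in both genotypes after centring.

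**Figure D1:**
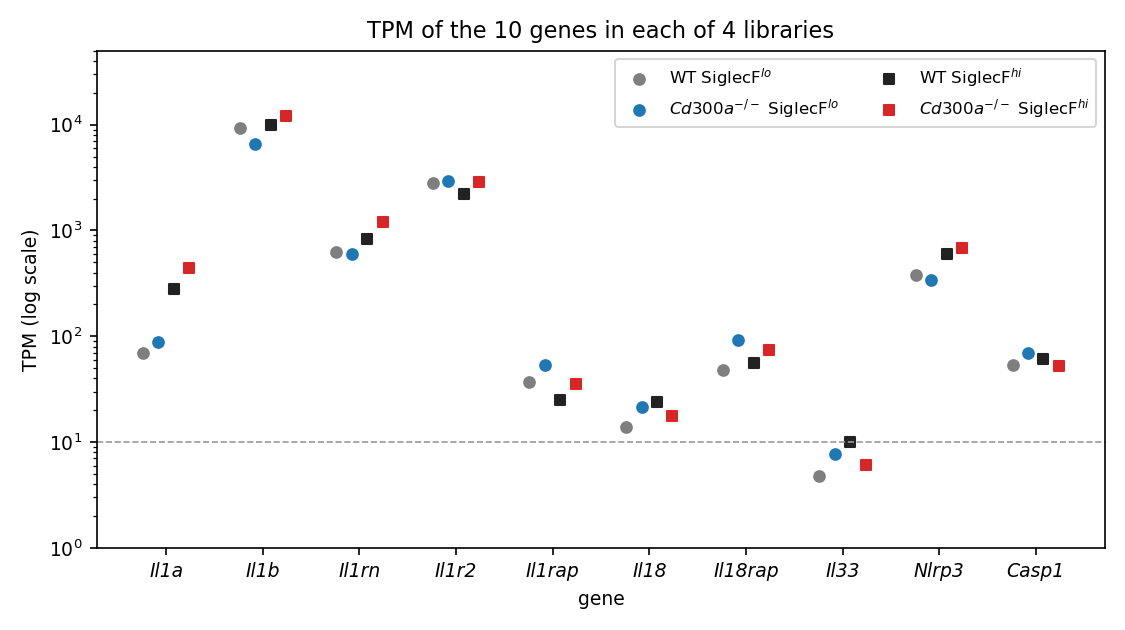
TPM of the 10 members (horizontal axis) in each of the 4 libraries on a log scale, with circles for SiglecF lo and squares for SiglecF hi neutrophils and a dashed line at 10 TPM. *Il1b* lies highest in each library, from 6637 to 12137 TPM, and *Il33* lowest, from 4.79 to 10.0 TPM.

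The antagonist gene *Il1rn* (ENSMUSG00000026981, chromosome 2 from 24226865 to 24241506 on the plus strand of GRCm39) was at 621 TPM (8641 counts) in WT SiglecF lo, 601 TPM (9226 counts) in *Cd300a-/-* SiglecF lo, 833 TPM (19791 counts) in WT SiglecF hi and 1209 TPM (25708 counts) in *Cd300a-/-* SiglecF hi neutrophils. The *Cd300a-/-* SiglecF hi library stood above the other 3, and the SiglecF lo libraries lay close together. In SiglecF hi neutrophils *Il1rn* rose 1.45-fold in *Cd300a-/-* mice, by a log2 ratio of 0.54 (interval 0.51 to 0.56), which was 0.50 relative to the median gene and there fell just short of the threshold. The ratio in SiglecF lo neutrophils was -0.05 (interval -0.0894 to -0.0049), and it was 0.0073 with DESeq2 size factors. SiglecF hi against SiglecF lo neutrophils gave, relative to the median gene, -0.10 in WT, which was 0.42 on the TPM scale, and 0.39 in *Cd300a-/-* mice, which was 1.01 on the TPM scale, so that the scaling ended this call. *Il1rn* has secreted and intracellular isoforms, which gene-level values do not separate.

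The decoy receptor gene *Il1r2* (ENSMUSG00000026073, chromosome 1 from 40113239 to 40164391 on the plus strand of GRCm39) was the second most abundant member in each library. It was at 2798 TPM (27426 counts) in WT SiglecF lo, 2960.1 TPM (32014 counts) in *Cd300a-/-* SiglecF lo, 2219 TPM (37147 counts) in WT SiglecF hi and 2889.7 TPM (43309 counts) in *Cd300a-/-* SiglecF hi neutrophils. Only the WT SiglecF hi library stood apart, below the other 3. The log2 ratio of *Cd300a-/-* to WT was 0.08 (interval 0.06 to 0.10) in SiglecF lo and 0.38 (interval 0.36 to 0.40) in SiglecF hi neutrophils. *Il1r2* was, relative to the median gene, lower in SiglecF hi than in SiglecF lo neutrophils, by a ratio of -0.86 in WT and -0.65 in *Cd300a-/-* mice, while on the TPM scale the ratios were -0.33 and -0.03. The decoy thus exceeded the antagonist per length in each library, 4.50-fold in WT SiglecF lo, 4.92-fold in *Cd300a-/-* SiglecF lo, 2.66-fold in WT SiglecF hi and 2.39-fold in *Cd300a-/-* SiglecF hi neutrophils.

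To set agonists against the genes that hold them back, the summed TPM of *Il1a* and *Il1b* was divided by that of *Il1rn* or *Il1r2* within a library, which does not depend on the scaling between libraries. The agonist to antagonist ratio was 15.0 (interval 14.6 to 15.3) in WT SiglecF lo, 11.2 (interval 10.9 to 11.4) in *Cd300a-/-* SiglecF lo, 12.3 (interval 12.1 to 12.5) in WT SiglecF hi and 10.4 (interval 10.3 to 10.5) in *Cd300a-/-* SiglecF hi neutrophils. It was lower in the *Cd300a-/-* than in the WT library of each subset and lower in the SiglecF hi than in the SiglecF lo library of each genotype. As log2 changes, *Cd300a-/-* against WT gave -0.42 (interval -0.47 to -0.38) in SiglecF lo and -0.24 (interval -0.27 to -0.22) in SiglecF hi neutrophils, and SiglecF hi against SiglecF lo gave -0.28 (interval -0.32 to -0.24) in WT and -0.10 (interval -0.14 to -0.07) in *Cd300a-/-* mice, so none passed 0.5. The numerator differed between the subsets. In SiglecF lo neutrophils *Il1b* was the lower in *Cd300a-/-* with *Il1rn* nearly level, and in SiglecF hi neutrophils *Il1b* and *Il1rn* were both the higher in *Cd300a-/-*, *Il1rn* by more. These directions were those of *Il1b*, and with *Il1a* alone as the agonist all 4 changes were positive, from 0.13 to 1.59.

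The agonist to decoy ratio was 3.33 (interval 3.28 to 3.37) in WT SiglecF lo, 2.27 (interval 2.24 to 2.30) in *Cd300a-/-* SiglecF lo, 4.63 (interval 4.57 to 4.68) in WT SiglecF hi and 4.35 (interval 4.31 to 4.40) in *Cd300a-/-* SiglecF hi neutrophils. The *Cd300a-/-* SiglecF lo library was the lowest of the 4. In SiglecF lo neutrophils the ratio fell by 0.55 on the log2 scale (interval -0.58 to -0.52) from WT to *Cd300a-/-* mice, and in SiglecF hi neutrophils the change was -0.09 (interval -0.11 to -0.07). With *Il1a* alone as the agonist these changes were 0.29 and 0.29. Between genotypes in SiglecF lo neutrophils 9 of 9 neutrophil markers were higher in *Cd300a-/-* mice. There 7 of 7 endothelial markers and 7 of 10 immediate early genes were lower. The part of these lists in the fall of the ratio was not tested. From SiglecF lo to SiglecF hi neutrophils the ratio changed by 0.48 (interval 0.45 to 0.50) in WT and rose by 0.94 (interval 0.91 to 0.96) in *Cd300a-/-* mice. Thus the subset difference ran towards less agonist per antagonist but more agonist per decoy.

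**Figure D2:**
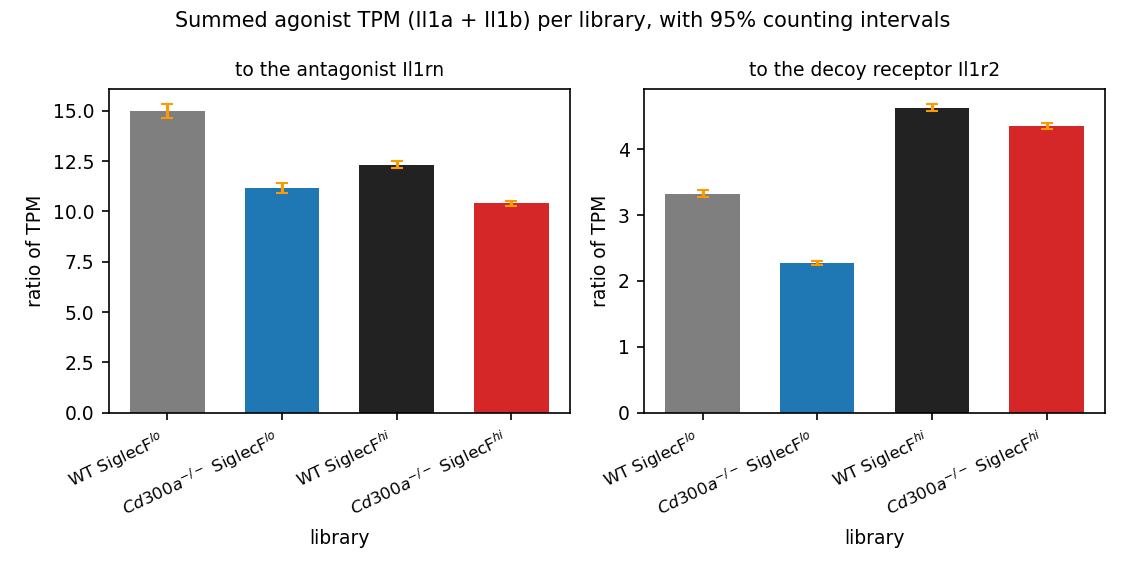
Ratio of the summed TPM of *Il1a* and *Il1b* to the TPM of the antagonist *Il1rn* (left) and of the decoy receptor *Il1r2* (right) in each library, as bars from 0 with 95% counting intervals. The antagonist ratio ran from 10.4 to 15.0 and was highest in WT SiglecF lo neutrophils, and the decoy ratio ran from 2.27 to 4.63 and was highest in WT SiglecF hi neutrophils.

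The co-receptor gene *Il1rap* (ENSMUSG00000022514, chromosome 16 from 26400454 to 26548867 on the plus strand of GRCm39) encodes the accessory chain shared by the receptors for IL-1 and IL-33. It was at 36.7 TPM (2114 counts) in WT SiglecF lo, 53.8 TPM (3416 counts) in *Cd300a-/-* SiglecF lo, 24.8 TPM (2435 counts) in WT SiglecF hi and 35.2 TPM (3095 counts) in *Cd300a-/-* SiglecF hi neutrophils. Within each subset the *Cd300a-/-* library was the higher, and within each genotype the SiglecF lo library was. *Il1rap* rose in *Cd300a-/-* SiglecF lo neutrophils by a log2 ratio of 0.54 (interval 0.46 to 0.61), and in SiglecF hi neutrophils its ratio was 0.49 (interval 0.42 to 0.56), where 96.3% of genes lay below it. From SiglecF lo to SiglecF hi neutrophils it was lower on both scales, by -1.08 in WT and -1.21 in *Cd300a-/-* mice relative to the median gene and by -0.55 and -0.60 on the TPM scale. A membrane-bound and a soluble form of this protein exist and were not separated.

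The signalling receptor gene *Il1r1*, which is not one of the 10 members, had 159 counts (5.06 TPM) in WT SiglecF lo, 15 counts (0.43 TPM) in the *Cd300a-/-* SiglecF lo library, 273 counts (5.09 TPM) in the WT SiglecF hi library and 211 counts (4.39 TPM) in *Cd300a-/-* SiglecF hi neutrophils. It was under the mean TPM limit and low in each library, lowest in *Cd300a-/-* SiglecF lo neutrophils, where the log2 ratio to WT was -2.08 (interval -2.37 to -1.79). The ratio of that library was larger in size under other settings, at -2.89 with TMM scaling, -2.88 with size factors and -3.28 with a pseudocount of 0.1. The endothelial markers were also lowest in that library, at the 55.5 TPM given above, and their part in this value was not tested. Per length, transcripts of the decoy outnumbered those of the signalling receptor 553-fold in WT SiglecF lo, 436-fold in WT SiglecF hi and 658-fold in *Cd300a-/-* SiglecF hi neutrophils. In *Cd300a-/-* SiglecF lo neutrophils the ratio was 6840-fold, with an interval from 4123 to 11347 because of the 15 counts.

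*Il18* (ENSMUSG00000039217, chromosome 9 from 50466127 to 50493140 on the plus strand of GRCm39) encodes IL-18, a cytokine cut by caspase-1 like IL-1β. It was at 13.8 TPM (73 counts) in WT SiglecF lo, 21.4 TPM (125 counts) in *Cd300a-/-* SiglecF lo, 24.0 TPM (217 counts) in WT SiglecF hi and 17.5 TPM (142 counts) in *Cd300a-/-* SiglecF hi neutrophils. It rose in *Cd300a-/-* SiglecF lo neutrophils by a log2 ratio of 0.60, with a wide interval (0.21 to 0.99), and in SiglecF hi neutrophils its ratio was -0.43 (interval -0.72 to -0.14). *Il18* overlaps *Bco2*, which lies on the opposite strand and had 29, 74, 56 and 41 counts in the same order of libraries, and the use of strand in the counting is not given in the sources used here. *Il18bp*, which encodes the soluble protein that neutralizes IL-18, was at 10.2 TPM in WT SiglecF lo, 14.6 TPM in the *Cd300a-/-* SiglecF lo library, 16.7 TPM in the WT SiglecF hi library and 17.0 TPM in *Cd300a-/-* SiglecF hi neutrophils. Its TPM was below that of *Il18* in each library, at a ratio from 0.68 to 0.97, and the interval of the ratio held 1 only in *Cd300a-/-* SiglecF hi neutrophils (0.80 to 1.17).

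*Il33* (ENSMUSG00000024810, chromosome 19 from 29902514 to 29938118 on the plus strand of GRCm39) encodes an alarmin that is mainly made by stromal and barrier cells. It was at 4.79 TPM (71 counts) in WT SiglecF lo, 7.76 TPM (127 counts) in *Cd300a-/-* SiglecF lo, 10.0 TPM (254 counts) in WT SiglecF hi and 6.13 TPM (139 counts) in *Cd300a-/-* SiglecF hi neutrophils. On the TPM scale the order of its libraries was that of *Il18*, with both *Cd300a-/-* libraries between the WT libraries. This did not hold relative to the median gene. There *Il33* exceeded WT SiglecF lo by 0.61 in *Cd300a-/-* SiglecF lo and by 0.40 in WT SiglecF hi neutrophils. For *Il18* these ratios were 0.615 and 0.23. The log2 ratio of *Cd300a-/-* to WT was 0.60 (interval 0.24 to 0.95) in SiglecF lo and -0.63 (interval -0.89 to -0.37) in SiglecF hi neutrophils, and as a gene under the limit of 10 TPM it entered no count of members past 0.5 made at that limit. On the TPM scale the summed fibroblast markers given above were also highest in WT SiglecF hi neutrophils. Between genotypes in SiglecF lo neutrophils, where *Il33* had a ratio above 0, 4 of 7 fibroblast markers did too and 3 of 7 were below 0, while their sum was 871 TPM in WT and 818 TPM in *Cd300a-/-* mice. In SiglecF hi neutrophils, where *Il33* had a ratio below 0, 6 of 7 were below 0. The part of fibroblast and macrophage RNA in the values of *Il33* and *Il18* was not tested. *Il1rl1*, the gene of the IL-33 receptor, was at most 3.10 TPM, in *Cd300a-/-* SiglecF lo neutrophils.

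*Il18rap* (ENSMUSG00000026068, chromosome 1 from 40554522 to 40590865 on the plus strand of GRCm39) encodes the co-receptor that completes the IL-18 receptor. It was at 48.2 TPM (1210 counts) in WT SiglecF lo, 92.6 TPM (2566 counts) in *Cd300a-/-* SiglecF lo, 56.0 TPM (2403 counts) in WT SiglecF hi and 74.3 TPM (2854 counts) in *Cd300a-/-* SiglecF hi neutrophils. On the TPM scale both *Cd300a-/-* libraries lay above both WT libraries. Relative to the median gene, *Cd300a-/-* SiglecF lo was at 0.94 against WT SiglecF lo. There *Cd300a-/-* SiglecF hi was at -0.93 against *Cd300a-/-* SiglecF lo, and so close to WT SiglecF lo. In SiglecF lo neutrophils *Il18rap* rose 1.90-fold in *Cd300a-/-* mice, by a log2 ratio of 0.93 (interval 0.83 to 1.03), the largest genotype ratio among the 10 members in either subset, and in SiglecF hi neutrophils the ratio was 0.40 (interval 0.32 to 0.48). Relative to the median gene, the ratio of SiglecF hi to SiglecF lo neutrophils was -0.31 in WT, which was 0.21 on the TPM scale, and -0.93 in *Cd300a-/-* mice, which was -0.31 on the TPM scale. The ligand-binding chain of the same receptor, *Il18r1*, was at 3.19 TPM in WT SiglecF lo, 3.88 TPM in the *Cd300a-/-* SiglecF lo library, 2.15 TPM in the WT SiglecF hi library and 3.28 TPM in *Cd300a-/-* SiglecF hi neutrophils. The co-receptor thus exceeded the binding chain per length, from 15.1-fold in WT SiglecF lo to 26.02-fold in WT SiglecF hi neutrophils.

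Of the inflammasome genes, *Nlrp3* (ENSMUSG00000032691, chromosome 11 from 59432394 to 59457782 on the plus strand of GRCm39) encodes the sensor. It was at 378 TPM (7877 counts) in WT SiglecF lo, 338 TPM (7772 counts) in *Cd300a-/-* SiglecF lo, 603 TPM (21461 counts) in WT SiglecF hi and 685 TPM (21823 counts) in *Cd300a-/-* SiglecF hi neutrophils. Both SiglecF hi libraries lay above both SiglecF lo libraries, and the genotypes differed little. Between genotypes (*Cd300a-/-* to WT) the log2 ratio of *Nlrp3* was -0.16 (interval -0.21 to -0.12) in SiglecF lo and 0.18 (interval 0.16 to 0.21) in SiglecF hi neutrophils. SiglecF hi against SiglecF lo neutrophils gave 0.67 in WT and 1.02 in *Cd300a-/-* mice on the TPM scale, past 0.5, but 0.15 and 0.40 relative to the median gene.

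*Casp1* (ENSMUSG00000025888, chromosome 9 from 5298508 to 5307290 on the plus strand of GRCm39) encodes the protease that matures IL-1β and IL-18. It was at 52.9 TPM (444 counts) in WT SiglecF lo, 69.3 TPM (641 counts) in *Cd300a-/-* SiglecF lo, 60.5 TPM (867 counts) in WT SiglecF hi and 52.2 TPM (669 counts) in *Cd300a-/-* SiglecF hi neutrophils. The 4 libraries lay close together, with the highest level in *Cd300a-/-* SiglecF lo neutrophils. Between genotypes (*Cd300a-/-* to WT) *Casp1* had a log2 ratio of 0.38 (interval 0.21 to 0.55) in SiglecF lo and -0.21 (interval -0.35 to -0.07) in SiglecF hi neutrophils. Between subsets, the ratio relative to the median gene was -0.34 in WT, which was 0.19 on the TPM scale, and -1.02 in *Cd300a-/-* mice, which was -0.40 on the TPM scale. Sensor and protease were therefore unequal, and *Nlrp3* exceeded *Casp1* per length 7.14-fold in WT SiglecF lo, 4.88-fold in *Cd300a-/-* SiglecF lo, 9.96-fold in WT SiglecF hi and 13.1-fold in *Cd300a-/-* SiglecF hi neutrophils.

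The adaptor gene *Pycard*, whose product ASC joins NLRP3 to caspase-1, was lower in *Cd300a-/-* neutrophils of both subsets. It was at 29.2 TPM (570 counts) in WT SiglecF lo, 14.6 TPM (314 counts) in *Cd300a-/-* SiglecF lo, 34.8 TPM (1161 counts) in WT SiglecF hi and 22.0 TPM (657 counts) in *Cd300a-/-* SiglecF hi neutrophils. The log2 ratio of *Cd300a-/-* to WT was -0.95 (interval -1.14 to -0.77) in SiglecF lo and -0.64 (interval -0.77 to -0.51) in SiglecF hi neutrophils. Only 1.7% of genes had a lower ratio in SiglecF hi neutrophils. In SiglecF lo neutrophils 7 of 7 endothelial and 5 of 6 cardiomyocyte markers were also lower, and 5 of 9 macrophage markers were higher. In SiglecF hi neutrophils 6 of 9 macrophage and 6 of 7 fibroblast markers were also lower, and 6 of 7 endothelial markers were higher. The part of these lists in the ratios of *Pycard* was not tested. *Casp4*, the sensor of intracellular lipopolysaccharide, was at 122 TPM in WT SiglecF lo, 151 TPM in the *Cd300a-/-* SiglecF lo library, 86.1 TPM in the WT SiglecF hi library and 122 TPM in *Cd300a-/-* SiglecF hi neutrophils. The pore-forming effector *Gsdmd* was at 83.6 TPM in WT SiglecF lo, 115 TPM in the *Cd300a-/-* SiglecF lo library, 84.1 TPM in the WT SiglecF hi library and 101 TPM in *Cd300a-/-* SiglecF hi neutrophils. Neither gene passed 0.5 between genotypes, with ratios for *Casp4* of 0.30 (SiglecF lo) and 0.50 (SiglecF hi, just short of it) and for *Gsdmd* of 0.46 and 0.27. Each passed under another setting, *Casp4* in SiglecF hi neutrophils with a pseudocount of 0.1 (0.501) and *Gsdmd* in SiglecF lo neutrophils with size factors (0.51). Of the other sensors, *Aim2*, which binds DNA, lay between 21.3 TPM in *Cd300a-/-* SiglecF lo and 48.0 TPM in *Cd300a-/-* SiglecF hi libraries, while *Nlrc4*, which serves receptors for bacterial proteins, lay between 3.24 and 6.06 TPM.

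The 9 members over the TPM limit were counted past 0.5 beside all genes over it, first between genotypes. In SiglecF lo neutrophils 3 of 9 were higher in *Cd300a-/-* (*Il1rap*, *Il18* and *Il18rap*) and 0 lower, where 16.4% of the 6523 genes were higher and 19.9% lower. The median ratio of the 9 was 0.37, against -0.02 for all genes. In SiglecF hi neutrophils 2 of 9 were higher (*Il1a* and *Il1rn*) and 0 lower, where 3.31% of genes were higher and 3.46% lower. The median of the members there was 0.38, against 0.04 for all genes. The neutrophil markers were also higher in *Cd300a-/-* mice, 9 of 9 with a ratio above 0 in SiglecF lo and 8 of 9 in SiglecF hi neutrophils, *Ly6g* at 1.43 and 1.82, and their part in the members' ratios was not tested. The lists of called members rest on the cut, since *Il1rap* had ratios of 0.54 and 0.49, and with a pseudocount of 0.1 it passed in SiglecF hi neutrophils too. The difference of its ratios was 0.05 (counting interval -0.06 to 0.16), without replicates.

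Between subsets in WT mice, 3 of 9 were higher in SiglecF hi neutrophils on the TPM scale (*Il1a*, *Il18* and *Nlrp3*) and 1 lower (*Il1rap*), where 51.9% of genes were higher and 7.47% lower. Relative to the median gene, 1 was higher (*Il1a*) and 2 were lower (*Il1r2* and *Il1rap*), where 19.3% of genes were higher and 20.9% lower. In *Cd300a-/-* mice 4 of 9 were higher on the TPM scale (*Il1a*, *Il1b*, *Il1rn* and *Nlrp3*) and 1 lower (*Il1rap*), where 56.6% of genes were higher and 7.97% lower. After centring 1 was higher (*Il1a*) and 5 were lower (*Il1r2*, *Il1rap*, *Il18*, *Il18rap* and *Casp1*), where 21.2% of genes were higher and 23.6% lower. On the same scale 9 of 9 neutrophil markers lay below 0 in both genotypes, and in *Cd300a-/-* mice 8 of 9 macrophage and 7 of 7 endothelial markers lay above 0, where in WT 6 of 9 and 0 of 7 did. Their part in these counts was not tested. The median of the 9 relative to the median gene was -0.31 in WT and -0.65 in *Cd300a-/-* mice. These comparisons share libraries with the comparisons of genotypes, so they are not independent of them.

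**Figure D3:**
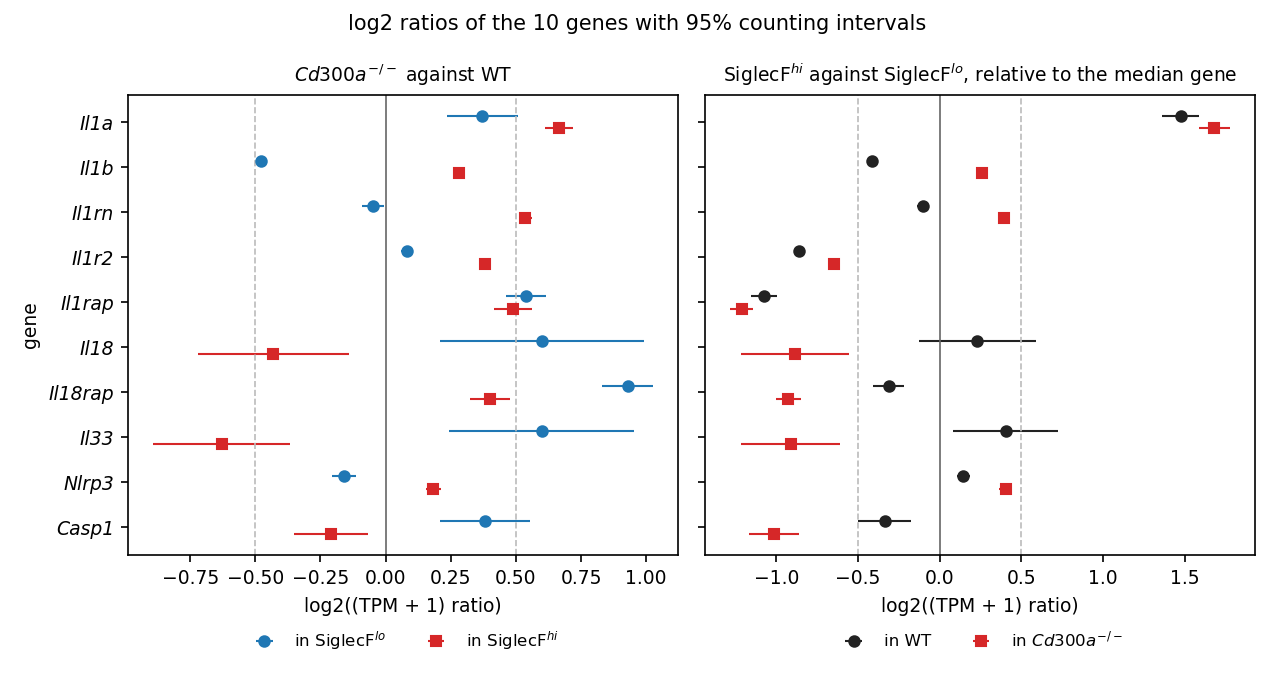
Log2((TPM + 1) ratio) of each member with its 95% counting interval, *Cd300a-/-* against WT in both subsets (left) and SiglecF hi against SiglecF lo relative to the median gene in both genotypes (right), with dashed lines at -0.5 and 0.5. The largest genotype ratio is that of *Il18rap* in SiglecF lo neutrophils, at 0.93, and the largest subset ratio is that of *Il1a*, at 1.68 in *Cd300a-/-* and 1.47 in WT mice, where on the right *Il1b*, *Il1rn*, *Il18rap* and *Casp1* in WT lie below 0 but are above 0 on the TPM scale.

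Within a library the order of levels per length was stable at the top, with *Il1b*, *Il1r2*, *Il1rn* and *Nlrp3* as the first 4 in each of the 4 libraries, and at the bottom, with *Il18* above *Il33*. The middle of the order changed. *Il18rap* stood above *Il1a* in *Cd300a-/-* SiglecF lo neutrophils only, where the ratio between them was 1.04 (interval 0.96 to 1.12). Neighbours that did not differ beyond counting error were also *Casp1* and *Il18rap* in WT SiglecF lo neutrophils and *Il1rap* and *Il18* in WT SiglecF hi neutrophils. Together the 10 members held 1.33% of TPM in WT SiglecF lo, 1.09% in the *Cd300a-/-* SiglecF lo library, 1.41% in the WT SiglecF hi library and 1.75% in *Cd300a-/-* SiglecF hi neutrophils, most of it from *Il1b*.

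Among 5 further ligand genes of the family, only *Il36g*, which encodes IL-36γ, was over the TPM limit. It was at 557 TPM in WT SiglecF lo, 545 TPM in the *Cd300a-/-* SiglecF lo library, 262 TPM in the WT SiglecF hi library and 284 TPM in *Cd300a-/-* SiglecF hi neutrophils. It was lower in SiglecF hi neutrophils on both scales, by -1.08 in WT and -0.94 in *Cd300a-/-* mice on the TPM scale and by -1.61 and -1.55 relative to the median gene, with little difference between genotypes. Of the others 3 had 0 counts in all 4 libraries. Of 8 receptor and binding protein genes only *Il18bp* was over the limit, and its ratio between genotypes in SiglecF lo neutrophils was 0.48, short of 0.5, but 0.52 with TMM scaling, 0.55 with size factors and 0.51 with a pseudocount of 0.1.

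Of 13 genes of IL-1 receptor signalling, 10 were over the TPM limit. In *Cd300a-/-* against WT SiglecF lo neutrophils 2 of these rose and 0 fell, or 3 and 0 after centring or TMM scaling, with a median of 0.17, where 16.4% of all genes were higher and 19.9% lower. In SiglecF hi neutrophils 0 passed in either direction, with a median of 0.16, where 3.31% of all genes were higher and 3.46% lower. The risen genes were *Irak3*, which encodes a kinase-like brake on MyD88 signalling, and *Tollip*, which encodes another inhibitory adaptor. With DESeq2 size factors *Traf6* (0.58) and *Irak2* (0.51) were also higher past 0.5 in *Cd300a-/-* SiglecF lo neutrophils. *Irak3* was at 36.4 TPM (612 counts) in WT SiglecF lo, 82.2 TPM (1524 counts) in *Cd300a-/-* SiglecF lo, 58.5 TPM (1679 counts) in WT SiglecF hi and 60.4 TPM (1552 counts) in *Cd300a-/-* SiglecF hi neutrophils, a ratio of 1.153 (interval 1.02 to 1.29) in SiglecF lo and 0.05 (interval -0.05 to 0.14) in SiglecF hi neutrophils. *Tollip* had 30.8 TPM (WT) and 44.9 TPM (*Cd300a-/-*) in SiglecF lo neutrophils, for a ratio of 0.53. *Myd88*, the shared adaptor, had ratios of 0.31 (SiglecF lo) and 0.38 (SiglecF hi). Between subsets 5 of the 10 were higher in SiglecF hi neutrophils in WT and 6 in *Cd300a-/-* mice on the TPM scale, with 0 lower, where 51.9% (WT) and 56.6% (*Cd300a-/-*) of all genes were higher. Centred, 0 were higher and 1 lower in WT and 1 was higher and 2 were lower in *Cd300a-/-* mice, where 19.3% of all genes were higher and 20.9% lower in WT and 21.2% and 23.6% in *Cd300a-/-* mice.

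Of 16 further inflammasome genes 13 were over the limit. In *Cd300a-/-* SiglecF lo neutrophils 1 was higher (*Mefv*, the gene of the pyrin sensor, at 0.63) and 1 lower (*Pycard*), with a median of 0.30 and with 2 higher after centring or TMM scaling, against 16.4% and 19.9% of all genes. With DESeq2 size factors *Naip2* (0.56), *Gsdmd* (0.51) and *Gsdme* (0.51) were higher past 0.5 beside *Mefv*. In SiglecF hi neutrophils 0 were higher and 1 lower (*Pycard*), with a median of 0.20, against 3.31% and 3.46% of all genes. Between subsets on the TPM scale 5 were higher and 2 lower in WT, against 51.9% and 7.47% of all genes, and 7 higher and 1 lower in *Cd300a-/-* mice, against 56.6% and 7.97%. Relative to the median gene these counts became 1 higher and 4 lower in WT, against 19.3% and 20.9% of all genes, and 1 higher and 5 lower in *Cd300a-/-* mice, against 21.2% and 23.6%. Of 5 other proteases that can cut IL-1 family proteins, the calpain genes *Capn1* and *Capn2* were over the limit. *Capn2*, whose protease family processes the IL-1α precursor, had 56.1 TPM (WT) and 33.0 TPM (*Cd300a-/-*) in SiglecF lo neutrophils, for a ratio of -0.75, and 87.1 and 77.1 TPM in the SiglecF hi libraries, for a ratio of -0.17. *Capn1*, of the same family, had 138 TPM (WT) and 190.0 TPM (*Cd300a-/-*) in SiglecF lo neutrophils, for a ratio of 0.46, and 95.8 and 92.95 TPM in the SiglecF hi libraries, for a ratio of -0.04. The calpain genes thus lay on opposite sides of 0 in SiglecF lo neutrophils.

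All of 10 genes that IL-1 can induce, which other stimuli of NF-κB induce as well, were over the limit. In SiglecF lo neutrophils 5 of them were lower in *Cd300a-/-* and 0 higher past 0.5, with a median of -0.47, where 19.9% of all genes were lower and 16.4% higher, and none of the 10 had a ratio above 0. The 4 largest of these were *Il6*, *Cxcl1*, *Ccl3* and *Ccl4*. The other, at -0.53, was at -0.48 with DESeq2 size factors and there fell short of the threshold. Those factors also put another gene of the list just above 0, at 0.01. *Cxcl1*, a chemokine that attracts neutrophils, was at 330.0 TPM in WT SiglecF lo, 140.3 TPM in the *Cd300a-/-* SiglecF lo library, 552 TPM in the WT SiglecF hi library and 372 TPM in *Cd300a-/-* SiglecF hi neutrophils, with ratios of *Cd300a-/-* to WT of -1.23 (interval -1.35 to -1.10) and -0.57 (interval -0.63 to -0.50). *Ccl3*, a chemokine that attracts myeloid cells, was at 1451 TPM in WT SiglecF lo, 969.8 TPM in the *Cd300a-/-* SiglecF lo library, 3561 TPM in the WT SiglecF hi library and 3988 TPM in *Cd300a-/-* SiglecF hi neutrophils, with ratios of -0.58 (interval -0.64 to -0.52) and 0.16 (interval 0.14 to 0.19). On the TPM scale the order of libraries for *Ccl3* was that of *Il1b*. In SiglecF hi neutrophils 1 of the 10 was lower (*Cxcl1*) and 0 were higher in *Cd300a-/-*, with a median of 0.14, where 3.46% of all genes were lower and 3.31% higher, and 8 had a ratio above 0. Between subsets on the TPM scale 8 of 10 were higher in SiglecF hi neutrophils and 0 lower in WT, against 51.9% and 7.47% of all genes, and 10 of 10 were higher in *Cd300a-/-* mice, against 56.6%. After centring, 2 were higher and 1 lower in WT, against 19.3% and 20.9% of all genes, and 7 were higher and 0 lower in *Cd300a-/-* mice, against 21.2% and 23.6%. The immediate early list given beside *Il1b* was also lowest in *Cd300a-/-* SiglecF lo neutrophils. So were the endothelial markers, at 55.5 TPM against 158 TPM in WT SiglecF lo neutrophils, with 7 of 7 lower and a ratio of -1.82 for *Pecam1*, beside -1.86 for *Il6* and the value of *Cxcl1* above. The 6 cardiomyocyte markers summed to 12.5 TPM there against 28.1 TPM in WT SiglecF lo neutrophils, with 5 of 6 lower. Of the macrophage markers 4 of 9 were lower, *Fcgr1* at -1.22, and 5 of 9 were higher, *Mrc1* at 0.66. All 9 of 9 neutrophil markers were higher. The part of any of these lists in the counts was not tested.

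The genes whose pattern over the 4 libraries was most like that of a member were taken by the smallest Euclidean distance of log2(TPM + 1), centred on each gene's mean. For *Il1b* they were *Impdh2* (distance 0.04), *Stard5* (0.05) and *Sec22b* (0.05), where the median gene lay at 0.70. *Impdh2*, an enzyme of guanine nucleotide synthesis, was at 51.5, 37.1, 54.2 and 67.5 TPM in WT SiglecF lo, *Cd300a-/-* SiglecF lo, WT SiglecF hi and *Cd300a-/-* SiglecF hi neutrophils. For *Il1rn* they were *Rbm25* (0.07), *Crot* (0.08) and *Rabgap1* (0.09), and for *Il1r2* they were *Emd* (0.05), *Ugcg* (0.06) and *Ehd1* (0.07), with the median gene at 0.70 and 0.96. With 4 values per gene many genes can lie close, and nothing on shared control follows from these distances.

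The promoters of the neighbouring agonist genes are shown because *Il1a* and *Il1b* share a chromosome region and receptor but differed in level and in pattern. Sequences are from RefSeq on build GRCm38.p6, a different build from that of the files, and each window of 300 bases spans the annotated start. All 10 members were matched, with 14 entries. The letters TATAAA, a form of the TATA box, were searched on both strands and are in capitals on the strand of the gene. The *Il1a* window is chr2:129309923-129310222 and the *Il1b* window chr2:129371090-129371389, both on the minus strand and written 5′ to 3′.
Il1a: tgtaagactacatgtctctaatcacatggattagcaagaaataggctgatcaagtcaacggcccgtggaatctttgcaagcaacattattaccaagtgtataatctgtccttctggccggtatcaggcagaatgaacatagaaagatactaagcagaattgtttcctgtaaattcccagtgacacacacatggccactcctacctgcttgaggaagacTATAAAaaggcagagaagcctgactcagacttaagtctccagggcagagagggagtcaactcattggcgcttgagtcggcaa
Il1b: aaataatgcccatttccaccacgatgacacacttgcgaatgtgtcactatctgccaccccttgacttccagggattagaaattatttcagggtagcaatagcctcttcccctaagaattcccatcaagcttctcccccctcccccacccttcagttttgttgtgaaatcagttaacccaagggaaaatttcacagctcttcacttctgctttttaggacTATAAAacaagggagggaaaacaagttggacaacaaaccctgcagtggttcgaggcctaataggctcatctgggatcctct
Each window held 1 match on the gene's strand and 0 on the other, starting 32 bases before the annotated start in *Il1a* and 31 bases before it in *Il1b*. Of the 32851 promoter entries, 13.6% held these letters on either strand and 8.32% on the gene's strand. Among the members, *Il33* also held them on its own strand, and *Il18* and *Il1rn* held them on the other strand only. A match is a description of letters and not a measured site.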

How the data were processed

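RNA was sequenced as poly(A)-selected paired-end libraries, and the authors processed the reads in CLC Genomics Workbench. The submitters' processing notes give build GRCm39, and the aligner settings, the annotation release and the counting of pairs and strand are not given in the sources used here. The authors deposited a whole-number count of each gene, not normalized. Also deposited were RPKM, scaled by the authors to transcript length and depth, and TPM, a level per length with an equal sum over the genes of every library. A deposited signal named CPM is the depth-scaled count times 1 factor per library, and its sums divided by that of unscaled CPM were 1.0975, 1.1542, 0.8841 and 0.893 in WT SiglecF lo, *Cd300a-/-* SiglecF lo, WT SiglecF hi and *Cd300a-/-* SiglecF hi neutrophils. RPKM and this signal were read only for checks.

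From TPM as deposited, log2((TPM + 1) ratio) was computed. This makes the ratios of genes of low level smaller. Genes with a mean TPM over 10 were counted past 0.5 in either direction. Counting intervals (95%) used the Poisson error of the counts. Alternatives were a pseudocount of 0.1, TMM scaling (edgeR 4.0.16 in R 4.3.3), DESeq2 1.42.0 size factors, centring on the median gene, a threshold of 1, a mean TPM limit of 1 or none, single agonists, counts in place of TPM and a pseudocount of 1 in the agonist ratios. No test compared conditions. The members and lists were chosen with earlier results of these data known. The genes named are the 10 members, up to 4 genes per pathway list that passed 0.5 in a comparison, 10 receptor, adaptor and inflammasome genes named whatever their values, the 3 genes nearest in pattern to each of *Il1b*, *Il1rn* and *Il1r2*, a gene that overlaps a member, and sorting and cell type markers. Calculations used pandas 2.3.3 and numpy 2.4.6 in Python 3.11.15, and figures matplotlib 3.10.9.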

Additional observations from a re-analysis of the deposited data

Results flagged for a closer look

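For 6 members the log2 ratio of *Cd300a-/-* to WT had opposite signs in the subsets, with both counting intervals off 0. The share of all genes that did so was not counted, so this number is not read as a trait of the members. The difference (SiglecF lo minus SiglecF hi) is given with its counting interval, and without replicates it was not tested. *Il1b* was at -0.48 (SiglecF lo) and 0.28 (SiglecF hi), and *Il1rn* at -0.0471 (0.0073 with DESeq2 size factors) and 0.54. *Nlrp3* was at -0.16 (SiglecF lo) and 0.18 (SiglecF hi). The other 3 went the opposite way. *Il18* was at 0.60 (SiglecF lo) and -0.43 (SiglecF hi), *Il33* at 0.60 and -0.63, and *Casp1* at 0.38 and -0.21. The difference was -0.76 (-0.78 to -0.74) for *Il1b*, -0.58 (-0.63 to -0.53) for *Il1rn* and -0.34 (-0.40 to -0.29) for *Nlrp3*. It was 1.03 (0.54 to 1.52) for *Il18*, 1.23 (0.79 to 1.67) for *Il33* and 0.59 (0.37 to 0.82) for *Casp1*.

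Between subsets, the log2 ratio (SiglecF hi over SiglecF lo) on the TPM scale had opposite signs in the genotypes for 4 members, for 2 of them with both counting intervals off 0, and this difference was not tested either. Those 2 were *Il18rap*, at 0.21 in WT and -0.31 in *Cd300a-/-* neutrophils, and *Casp1*, at 0.19 and -0.40, and relative to the median gene both were negative in both genotypes. The intervals of *Il18* (0.76 and -0.27) and *Il33* (0.93 and -0.30) held 0 in *Cd300a-/-* neutrophils. The shares of all genes with opposite signs were not counted on either scale, so these numbers are not read as a trait of the members. Relative to the median gene the members with opposite signs were *Il1b* (-0.41 in WT and 0.26 in *Cd300a-/-*), *Il1rn* (-0.10 and 0.39), *Il18* (0.23 and -0.89) and *Il33* (0.40 and -0.91).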

How the results depend on the processing

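A pseudocount of 0.1 left all 40 log2 ratios of members within their counting intervals. TMM scaling left 17 and moved 23, DESeq2 size factors left 16 and moved 24, and centring left 16 and moved 24, which gave another sign to 4, 5 and 4 ratios, none of them past 0.5 on the TPM scale. With a threshold of 1, the members past it were 0 and 0 between genotypes in SiglecF lo and SiglecF hi, and 1 and 3 between subsets in WT and *Cd300a-/-* mice. A mean TPM limit of 1 or none lets in *Il33*, and the members past 0.5 were then 4, 3, 5 and 5 in the same order. In SiglecF hi neutrophils *Il33* was then a member lower in *Cd300a-/-*, at -0.63. Centring left 1 member past 0.5 between genotypes in SiglecF hi neutrophils. The shares of all genes were not counted at this threshold of 1, at these lower limits or for this centring. With *Il1a* alone as the agonist, the log2 changes of the antagonist ratio were 0.42 and 0.13 between genotypes (SiglecF lo, SiglecF hi) and 1.59 and 1.30 between subsets (WT, *Cd300a-/-*), and those of the decoy ratio were 0.29, 0.29, 2.35 and 2.34, so the fall in SiglecF lo neutrophils turned into a positive change, because *Il1a* takes the place of the far more abundant *Il1b*. With *Il1b* alone the subset changes of the decoy ratio were 0.45 in WT and 0.91 in *Cd300a-/-* mice. No library could be left out, since each group has 1. Precision is lowest for *Il18* and *Il33*, with 71 to 254 counts.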
